A study of Drosophila melanogaster with 3 samples.

Results

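The 8 Hox genes of the fly, labial (lab), proboscipedia (pb), Deformed (Dfd), Sex combs reduced (Scr), Antennapedia (Antp), Ultrabithorax (Ubx), abdominal A (abd-A) and Abdominal B (Abd-B), were taken by name from the gene annotation, out of 13945 protein-coding genes. Binding of the repressor Deadpan (Dpn) at them was read from chromatin immunoprecipitation sequencing (ChIP-seq) peak lists of whole Drosophila melanogaster embryos aged 0 to 16 h. There were 3 biological replicates of 1 group: male and female embryos, pooled, of a transgenic line that expresses Dpn with a green fluorescent protein tag at its C-terminus, precipitated through the tag. No untagged line and no other age was compared. The authors' thresholded list holds 6253 peaks on the dm6 genome. The relaxed lists, which hold background by design, have 30000 peaks for the pooled data, 30000 for replicate 1, 22475 for replicate 2 and 30000 for replicate 3. The thresholded peaks are the strongest 6253 of the pooled list by signal, the value the authors gave each peak. Its scale is unstated, so signal was used only for rank within a list, and rank 1 is the strongest peak. A whole embryo mixes many cell types, and strong binding in few cells cannot be told apart from weak binding in many. Peak lists hold no expression values, so the labelled material could not be checked against marker genes.

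Hox genes encode homeodomain transcription factors that give body segments their identity along the head-to-tail axis. In the fly they lie in 2 clusters, the Antennapedia complex with lab, pb, Dfd, Scr and Antp, which serve head and front thorax, and the bithorax complex with Ubx, abd-A and Abd-B, which serve rear thorax and abdomen. Their large introns and intervals carry enhancers, Polycomb response elements and boundary elements such as Fub, Mcp, Fab-7 and Fab-8 that keep the enhancers of neighbouring segments apart. Dpn belongs to the Hairy-related helix-loop-helix repressors and is known from neuroblasts, the neural stem cells of the fly, in which Hox proteins set when proliferation stops. The annotation used has no enhancer, response element or boundary element, so no summit below was assigned to a named one.

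Both complexes lie on chromosome arm 3R. The Antennapedia complex, from the outer edge of lab to that of Antp, runs from 6661427 to 6999228 (338 kb). The bithorax complex, from Ubx to Abd-B, runs from 16656623 to 16972236 (316 kb). All coordinates are 1-based on dm6. They held 31 thresholded summits, 14 in the Antennapedia complex and 17 in the bithorax complex. Of these 31, 17 (54.8%) lay in introns, 11 (35.5%) between genes, 3 (9.68%) within 500 bp of an annotated start of a protein-coding gene, and 0 in exons, a count that allows up to 11.2% (exact 95% binomial interval). Over the whole thresholded list 33.1% lay in introns, 16.0% between genes, 49.5% at start sites and 1.42% in exons. Dfd was the only Hox gene with a thresholded summit at a start site, and the strongest summit of the complexes lay between Ubx and abd-A.

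The bases around 7 of these summits are shown, picked by strength and kind of site. Each run takes in the summit and 50 bases on either side, read from the + strand of the RefSeq Release 6 genome, and capitals mark any of 12 short words searched on both strands. The summit upstream of Dfd, at 3R:6791477-6791577, is the only one at a Hox start site. The summit upstream of bicoid (bcd), at 3R:6759620-6759720, is the strongest of the Antennapedia complex, and the strongest of the bithorax complex, between Ubx and abd-A, is at 3R:16798825-16798925. The next 2 in strength in the bithorax complex, at 3R:16869347-16869447 and 3R:16919207-16919307, both lie between abd-A and Abd-B. The strongest summits inside a Hox gene are in Antp introns at 3R:6912491-6912591 and in Abd-B introns at 3R:16958205-16958305.
Dfd upstream: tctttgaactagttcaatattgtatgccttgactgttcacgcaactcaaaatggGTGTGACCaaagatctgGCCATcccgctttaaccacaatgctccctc
bcd upstream: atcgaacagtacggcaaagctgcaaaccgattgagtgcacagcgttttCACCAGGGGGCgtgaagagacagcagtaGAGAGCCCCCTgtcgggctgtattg
Ubx to abd-A: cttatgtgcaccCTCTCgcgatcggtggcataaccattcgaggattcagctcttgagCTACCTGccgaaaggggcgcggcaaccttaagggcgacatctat
abd-A to Abd-B, nearer abd-A: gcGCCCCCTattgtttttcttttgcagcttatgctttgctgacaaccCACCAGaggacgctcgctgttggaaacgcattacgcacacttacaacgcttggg
abd-A to Abd-B, nearer Abd-B: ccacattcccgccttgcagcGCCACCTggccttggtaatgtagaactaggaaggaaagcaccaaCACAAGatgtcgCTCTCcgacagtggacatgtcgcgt
Antp intron: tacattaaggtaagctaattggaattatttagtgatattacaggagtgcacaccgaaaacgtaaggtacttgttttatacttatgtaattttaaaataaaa
Abd-B intron: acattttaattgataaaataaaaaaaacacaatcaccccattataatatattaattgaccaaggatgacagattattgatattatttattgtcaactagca
In the Dfd window the capitals are GTGTGACC, the reverse strand of GGTCACAC (core promoter Motif 1), and GCCAT, the core of the Pho site. In the bcd window CACCAGGGGGC joins CACNAG, the N-box of Hairy-class repressors, to AGGNGGC, a core of the CTCF site, and GAGAGCCCCCT joins GAGAG to AGGNGGC on the reverse strand. The Ubx to abd-A window holds CTCTC, the reverse of the GAGA factor word GAGAG, and CTACCTG, the reverse of the Zelda word CAGGTAG. The windows nearer abd-A and nearer Abd-B each hold an AGGNGGC on the reverse strand and a CACNAG, and the latter also holds GAGAG on the reverse strand, as CTCTC. The windows in the Antp and Abd-B introns hold none of the 12 words. Not all strong summits between Hox genes are like those shown. In the Antennapedia complex the window at 6763122 (signal 309.17) has 22.8% GC and CGATA as its only word. The window at 6881800 (signal 243.14) has 26.7% GC and none of the words.

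**Figure D1:**
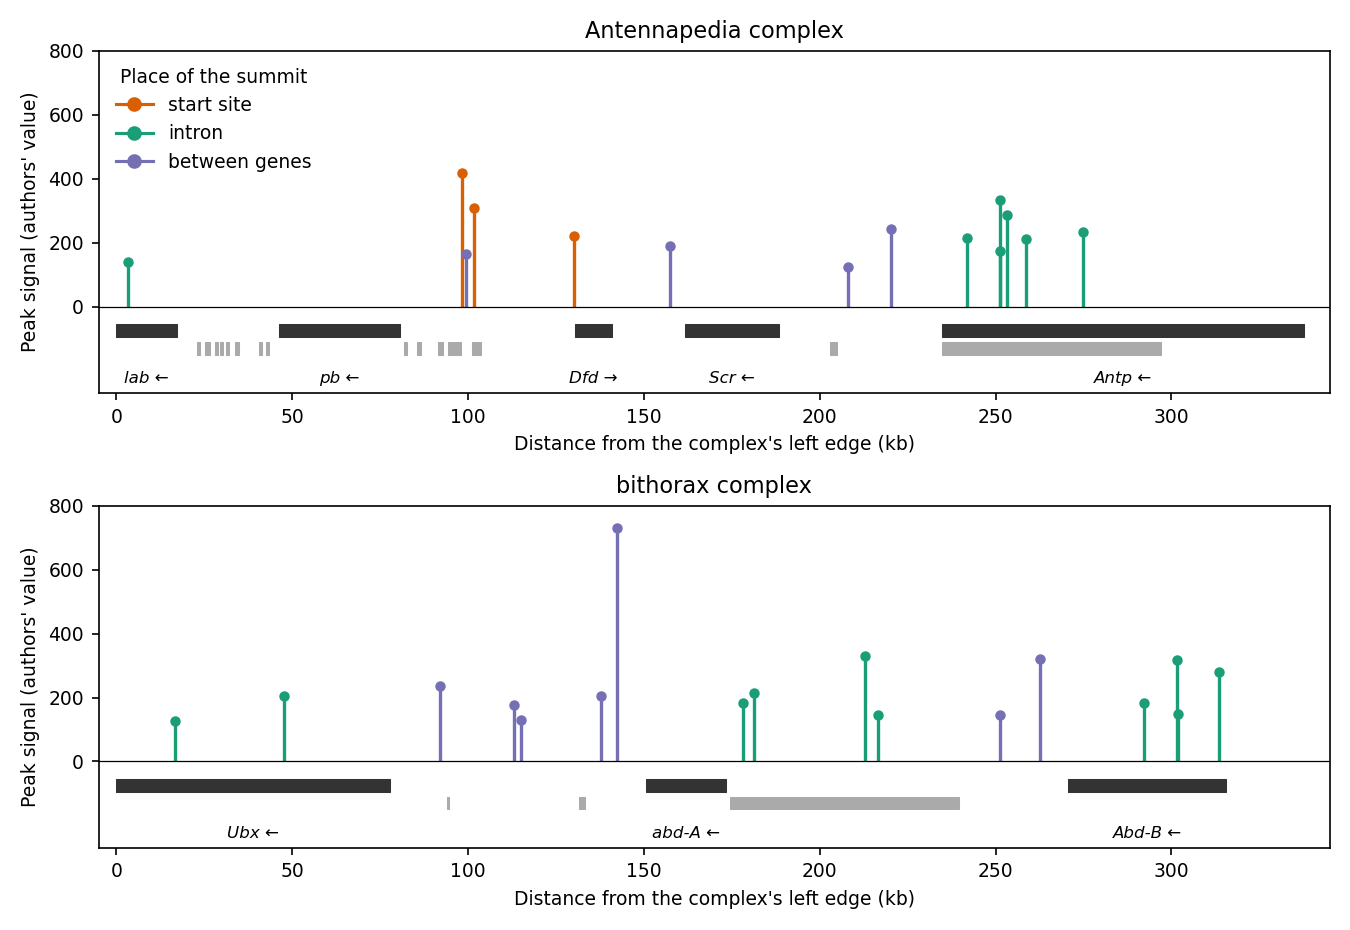
Thresholded Dpn summits along both complexes. The x axis is distance from the complex's left edge in kb, the y axis is the peak signal as the authors gave it, each stem is 1 summit coloured by its place, black bars are Hox genes with an arrow for their strand, and grey bars are other protein-coding genes. The tallest stem, at 142 kb in the bithorax complex, has a signal of 728.98, and stems at start sites appear in the Antennapedia complex only.

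The head genes at the left end of the Antennapedia complex had few summits. lab (FBgn0002522, 6661427 to 6678590), which acts in the front of the head and the midgut, held 1 thresholded summit in its intron at 6664791, with signal 138.81 and rank 5388. It lay 1337 bp upstream of the inner of 2 lab start sites. Its rank was 4864 in replicate 1, 3843 in replicate 2 and 8767 in replicate 3, so it fell below the strongest 6253 peaks in replicate 3. pb (FBgn0051481, 6707800 to 6742063), which directs mouthpart identity, held none in 34.3 kb, and neither did the 29.2 kb between lab and pb, where the cuticle genes Edg84A and Ccp84Aa to Ccp84Ag lie. The best pb body summit ranked 8021, 6161 and 12376 in replicates 1, 2 and 3. The stretch from the lab summit to the next summit, upstream of bcd, spanned 94.9 kb, the longest in either complex.

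The 49.8 kb between pb and Dfd held 4 summits, and 2 of them were at genes of the complex that are not Hox genes. The summit 204 bp upstream of bcd, the gene of the anterior morphogen, had signal 416.98 and rank 1058, with ranks of 1718, 800 and 1142 in replicates 1, 2 and 3. A weaker summit lay at 6760814 (signal 163.55, rank 4379), 1348 bp upstream of the same start. The summit at 6763122 in Amalgam (Ama), which encodes a secreted immunoglobulin-domain protein, lay 282 bp from an Ama start, with signal 309.17 and ranks of 1464, 2156 and 1630 in the replicates. It also lay in lncRNA:CR45593, 356 bp from the start of that gene, so the annotation does not give it to Ama alone. The homeobox genes zen and zen2 and the pair-rule gene ftz had no thresholded summit at a start site or in the gene. These bcd and Ama summits were within the strongest 6253 peaks of every replicate.

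Dfd (FBgn0000439, 6791836 to 6802428, the + strand, unlike the other 7 genes) specifies the maxillary and mandibular segments. Its summit at 6791527, 309 bp upstream of its single annotated start, had signal 219.26 and rank 2975. The best summit within 500 bp of the start ranked 4272, 4215 and 2471 in replicates 1, 2 and 3, each within the strongest 6253. In replicate 2 that summit lay 134 bp from the thresholded one and in replicates 1 and 3 within 12 bp. Replicates 2 and 3 each had another, weaker summit nearer the start, at ranks 20829 and 28885. The one in replicate 2, at 6791595, was also nearer to the thresholded summit. The gene body held no summit in the thresholded or pooled list, nor in replicates 1 and 3, and held 1 in replicate 2, at rank 13436. Of 5204 protein-coding genes with a start-site summit in all 3 replicate lists, those nearest to Dfd by the Euclidean distance of log10 ranks over the 3 lists were CG10194 and CG18094, both at 0.020 with the same ranks of 4182, 4377 and 2514, and ssh, which encodes a cofilin phosphatase, at 0.028.

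Scr, the gene of the labial and front thoracic segments, and its neighbourhood lay in a stretch of 50.8 kb without a thresholded summit. Scr (FBgn0003339, 6823120 to 6849981) had a best body summit at ranks 13992, 6984 and 26852 in the replicates, so the replicates spread from 31.1% to 89.5% of list length at this gene. On the Dfd side a summit at 6818761 (signal 189.26, rank 3636) lay 1133 bp from a tRNA gene, tRNA:Lys-TTT-2-1. On the Antp side were a summit at 6869549, 5225 bp downstream of the ftz start, with signal 124.03, and 1 at 6881800 in lncRNA:CR44931, with signal 243.14. The first of these, at rank 6155, was the weakest in either complex, and the strongest pooled summit of the complexes just outside the threshold had signal 119.85 and rank 6402.

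Antp (FBgn0260642, 6896253 to 6999228), the gene of thoracic identity and the longest of the 8 at 103 kb, held 6 thresholded summits, all in introns, more than any other Hox gene. They lay at 6903428, 6912541, 6912755, 6914542, 6920144 and 6936354. Their signals were 215.09, 333.57, 173.63, 286.24, 210.72 and 234.79 in that order. All 6 lie inside the overlapping gene model CG46458 too, so the annotation does not give them to Antp alone. The strongest, at 6912541, ranked 3828, 1368 and 1548 in replicates 1, 2 and 3, and each of the 6 was among the strongest 6253 peaks of every replicate. The pair at 6912541 and 6912755 lay 214 bp apart, so with fragments of 200 to 800 bp their reads can overlap. The right-hand 62.9 kb of the complex, from 6936354 to the outer edge of Antp, held none. The Antp start at 6932840, used by 6 of its 12 transcripts, had a summit 216 bp upstream in the pooled list at rank 8754, below the threshold.

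In the bithorax complex Ubx (FBgn0003944, 16656623 to 16734426), which acts in the rear thorax and front abdomen, held 2 intronic summits in 77.8 kb. The weaker, at 16673392 (signal 128.03, rank 5944), ranked 5510, 5212 and 7848 in the replicates. The stronger, at 16704455 (signal 205.31, rank 3268), ranked 4926, 2941 and 3163. Its start site lay in a stretch of 44.3 kb with no thresholded summit, and a summit within 500 bp of it was in the pooled list at rank 18287, in replicate 1 at 18415 and in replicate 3 at 10648, but not in replicate 2.

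The 72.8 kb between Ubx and abd-A held 5 summits. Those at 16748739, 16769655 and 16771742, with signals of 236.21, 175.17 and 131.08, lay in lncRNA:bxd, the noncoding transcript of the bxd region. The other two lay beyond it, at 16794420 (signal 204.90, rank 3277) and at 16798875. The summit at 16798875, 29.2 kb downstream of the nearest abd-A start, had signal 728.98 and rank 350, and was the only 1 of the 31 within the strongest 1000 peaks. It ranked 886, 213 and 353 in replicates 1, 2 and 3, with replicate summits 7, 2 and 0 bp away. The nearest annotated start, of lncRNA:CR45750, was 1725 bp away.

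abd-A (FBgn0000014, 16807214 to 16830049), which specifies middle abdominal segments, held no thresholded summit. Its best body summit ranked 8078, 13394 and 27891 in the replicates, and the stretch without a thresholded summit around it was 36.0 kb. The 97.2 kb between abd-A and Abd-B held 6, all inside lncRNA:iab8, the long noncoding transcript that runs across this interval. Of these, 4 (16834855, 16837987, 16869397 and 16873270) are intronic only because the gene model MSAmiP spans them. The strongest were at 16869397 (signal 330.67), with ranks of 2260, 1079 and 1691, and at 16919257 (signal 320.80), with ranks of 3367, 1536 and 1672. In both of these replicate 2 gave the highest rank and replicate 1 the lowest.

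Abd-B (FBgn0000015, 16927212 to 16972236), which specifies the rearmost abdomen, held 4 intronic summits in 45.0 kb, at 16948902, 16958255, 16958463 and 16970070. Their signals were 182.96, 317.04, 147.40 and 280.12. The strongest, at 16958255, ranked 1413, 2057 and 1846 in the replicates and lay 2026 bp downstream of one of 6 annotated Abd-B starts. The summit at 16970070 lay 1496 bp upstream of another, and ranked 2493, 3051 and 2025. The summits at 16958255 and 16958463 are 208 bp apart, and their reads can overlap as at the Antp pair.

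Set side by side, the best summit in each gene body put Antp and Abd-B ahead of the other genes. As a percentage of the replicate's list length, where low is strong, the best Antp summit stood at 6.27% ± 1.22 (SD, n = 3) and that of Abd-B at 6.67% ± 2.27, and their replicate ranges overlapped. Ubx followed at 13.3% ± 2.95, with no overlap with Abd-B, whose highest value was 9.15% against a lowest of 10.5% for Ubx. lab stood at 20.8% ± 7.27 and pb at 31.8% ± 8.19. Scr stood at 55.7% ± 30.3 and abd-A at 59.8% ± 33.0. From Ubx onward each gene's replicate range overlapped that of the next, so these neighbours do not differ beyond their spread. A longer gene has more room for a strong peak: Antp, Ubx and Abd-B are the longest, at 103, 77.8 and 45.0 kb, and the part of length in the order was not tested. Per 100 kb of gene, thresholded summits came to 8.88 in Abd-B, 5.83 in Antp, 5.83 in lab and 2.57 in Ubx, from 4, 6, 1 and 2 summits.

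**Figure D2:**
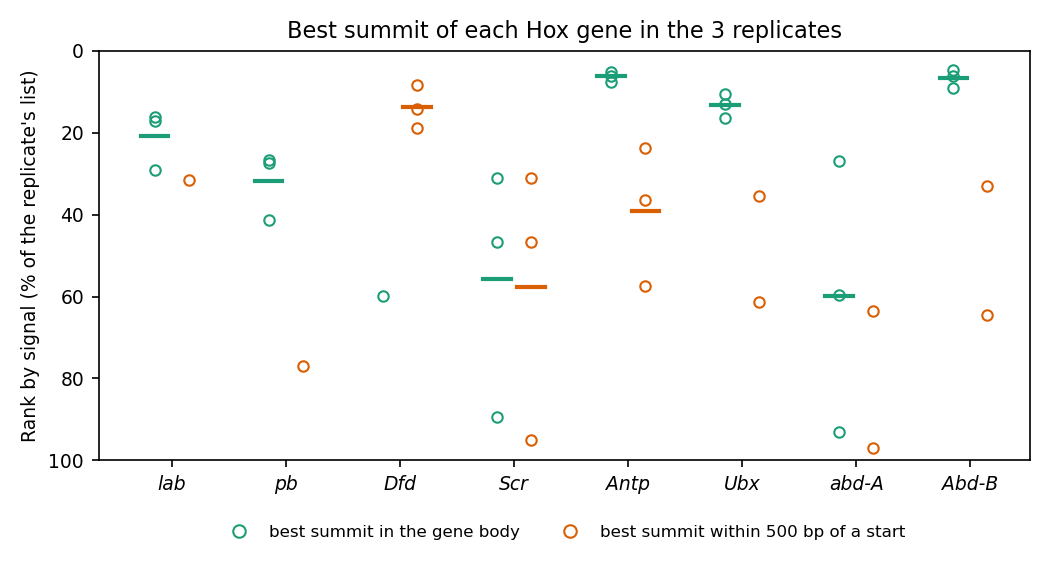
Best summit of each Hox gene in the 3 replicates. The y axis, inverted, is rank by signal as a percentage of the replicate's list, each circle is 1 replicate, green is the gene body and orange is within 500 bp of a start, bars are means where all 3 replicates had a summit, and a missing circle means no summit. The Antp and Abd-B bodies sit nearest the top, at means of 6.27% and 6.67%, followed by the Ubx body at 13.3% and the Dfd start at 13.7%, whose replicates overlap.

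Start sites of Hox genes were mostly without strong summits. In the thresholded list 1 of 8 Hox genes, Dfd, had a summit within 500 bp of a start, beside 27.7% of all protein-coding genes. Among the strongest 6253 peaks of each replicate the count was again 1 of 8, Dfd each time, beside 27.7%, 25.4% and 27.9% of genes in replicates 1, 2 and 3. In the pooled list 7 of 8 had one, all but pb, beside 54.2% of genes. In the whole replicate lists the counts were 6, 3 and 8 of 8, beside 56.0%, 43.3% and 55.4%. With 8 genes the counts are given as a description. The gene bodies of 4 of 8, lab, Antp, Ubx and Abd-B, held a thresholded summit, beside 14.1% of all protein-coding genes, whose median length is 2.17 kb.

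The position of summits in the complexes was compared with the rest of arm 3R, the only chromosome arm that holds them. The rest of the arm was taken as 31426 kb, its whole assembled length outside the complexes. No gene-poor or hard-to-map stretch was left out, and the part of such stretches in its densities was not tested. Thresholded summits came to 4.14 per 100 kb in the Antennapedia complex (exact 95% Poisson interval 2.27 to 6.95, counting error only), 5.39 in the bithorax complex (3.14 to 8.62) and 4.63 in the rest of the arm. Among the strongest 6253 peaks of replicates 1, 2 and 3, the Antennapedia complex had 4.14, 4.44 and 3.85 per 100 kb and the bithorax complex 4.44, 5.39 and 4.75. The lowest bithorax value and the highest Antennapedia value were both 4.44, and within each replicate the Antennapedia complex was the lower. The means of 4.14 ± 0.296 and 4.86 ± 0.484 (SD, n = 3) differed by -0.71, with a two-sided exact permutation p of 0.20 (0.27 after Benjamini-Hochberg adjustment over 4 comparisons). Both complexes together had 4.29, 4.90 and 4.29, and the rest of the arm 4.73, 4.49 and 4.64, so the values overlapped. Their means of 4.49 ± 0.353 and 4.62 ± 0.125 differed by -0.13 (two-sided exact permutation p = 0.60, adjusted 0.60). The smallest p that 3 values against 3 allow is 0.1, so neither comparison could pass 0.05. Paired within replicates, the Antennapedia complex was lower in 3 of 3 and both complexes were lower than the rest of the arm in 2 of 3, and the smallest p that 3 pairs allow is 0.25.

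The kind of site was compared in the same way. In replicates 1, 2 and 3, 3 of 28, 3 of 32 and 3 of 28 summits in the complexes were at start sites, or 10.7%, 9.38% and 10.7%, while in the rest of the arm the shares were 55.2%, 48.9% and 54.6%. No replicate had a start-site summit in the bithorax complex, and the 0 of 17 thresholded summits there allow a share of up to 19.5%. The means of 10.3% ± 0.773 and 52.9% ± 3.44 differed by -42.62 percentage points with no overlap, at the smallest two-sided exact permutation p this design allows, 0.10 (adjusted 0.20). Summits outside start sites in the complexes came to 3.83, 4.44 and 3.83 per 100 kb in the replicates against 2.12, 2.29 and 2.11 in the rest of the arm, again with no overlap. Their means of 4.03 ± 0.353 and 2.17 ± 0.102 differed by 1.86 per 100 kb, also at p = 0.10 by the two-sided exact permutation test (adjusted 0.20). Both of these comparisons were added after the data were seen, and the replicates supply both values of each. The complexes hold few genes: 26 protein-coding genes, or 3.98 per 100 kb, beside 10.8 in the rest of the arm, and the part of gene density in the share was not tested. Of those 26, 3 (bcd, Ama and Dfd) had a start-site summit, or 11.5%, beside 29.6% of the 3395 genes in the rest of the arm.

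**Figure D3:**
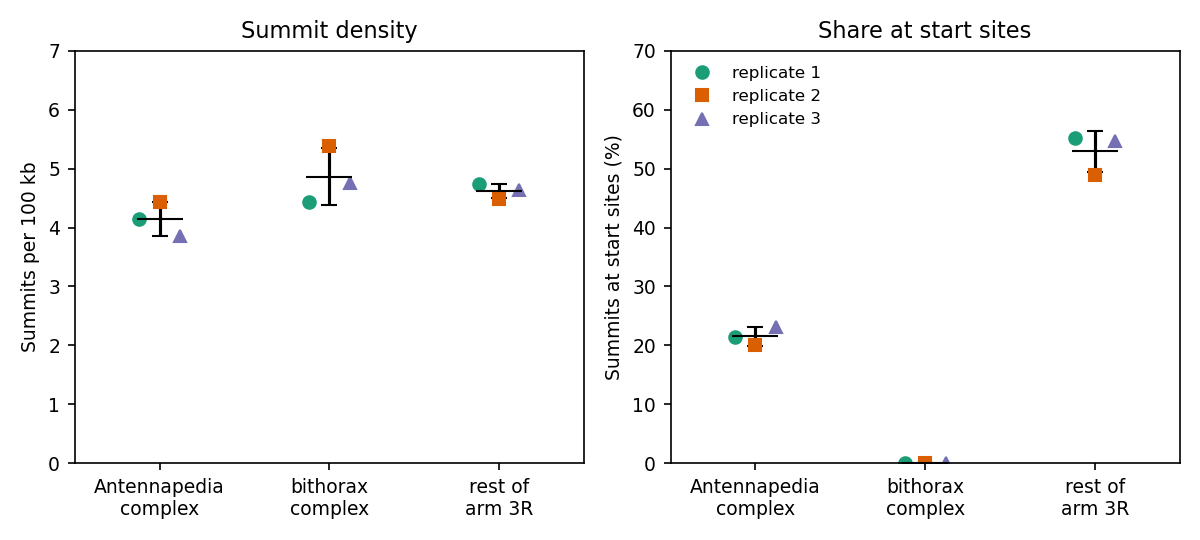
Summit density and share of summits at start sites in the strongest 6253 peaks of each replicate. The left y axis is summits per 100 kb and the right y axis is the percentage of summits within 500 bp of a protein-coding start; symbols are replicates, and bars are the mean with its SD over 3 replicates. The rest of the arm, at 4.49 to 4.73 per 100 kb, lies above the 3 Antennapedia values and within the bithorax range, while start-site shares do not exceed 23.1% in either complex and are at least 48.9% in the rest of the arm.

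By median rank the summits of the complexes were of ordinary strength for this list, but only 1 of the 31 was among the strongest 1000. That compares with 1000 of 6253 over the whole list and 228 of 1456 in the rest of arm 3R. The median rank of the 31 was 3145 of 6253, with 3020 in the Antennapedia complex and 3277 in the bithorax complex, beside 3127 over the whole list. In the strongest 6253 peaks of all 3 replicates, 24 of the 31 (77.4%) were overlapped by at least 1 bp, beside 68.1% of all thresholded peaks, while 4 were found in 2 replicates and 3 in 1. Where the replicate summit had to lie within 150 bp, 23 of the 31 were found in all 3. The thresholded list was made from these replicates, so this is no independent check. With no limit on rank all 31 had a peak in every replicate, and in 81 of 93 summit and replicate pairs the replicate summit lay within 50 bp. Replicate 2, the shortest list, gave the best of the 3 ranks at 17 of the 31 summits, against 7 each for replicates 1 and 3.

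**Figure D4:**
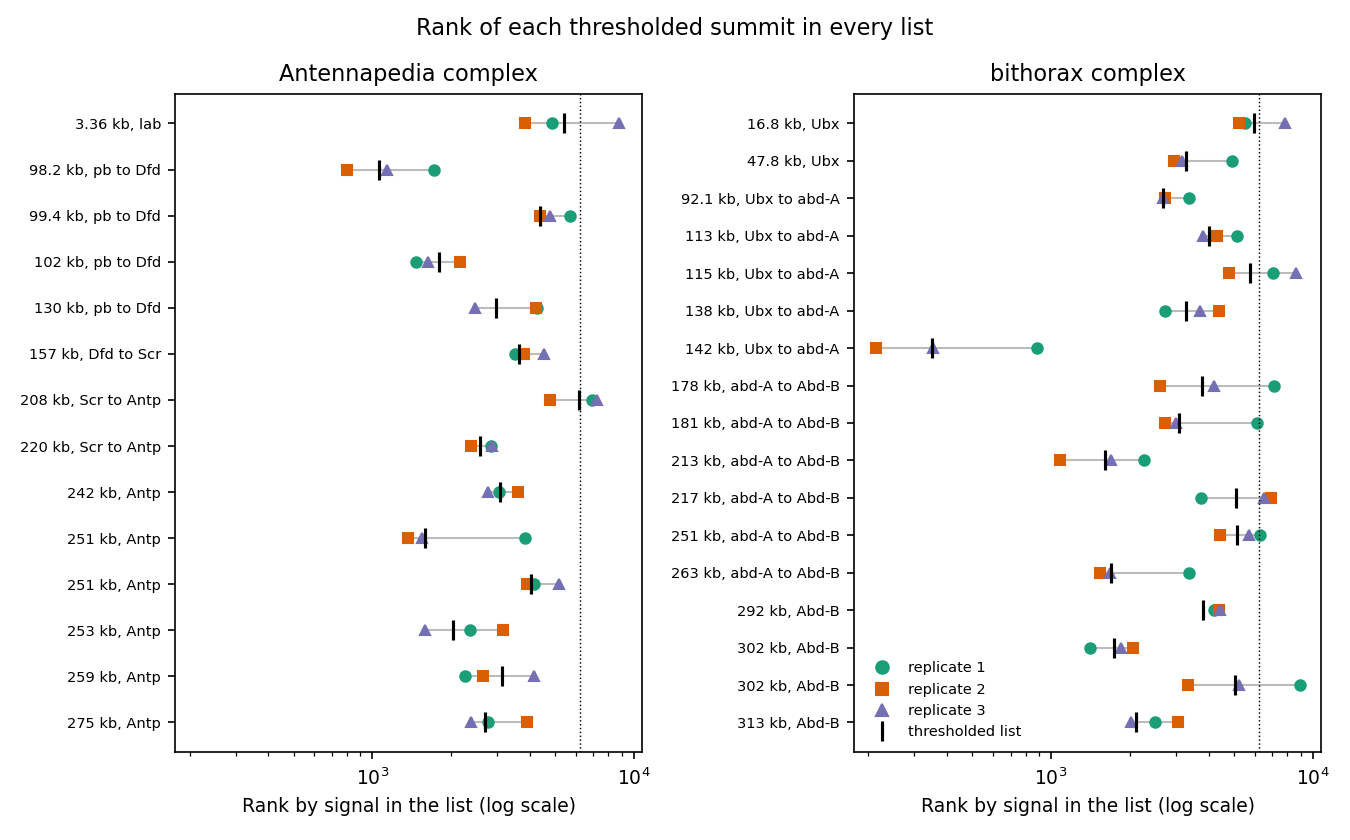
Rank of the 31 thresholded summits in every list. The x axis is rank by signal on a log scale, where left is strong, rows are summits in order along each complex with their distance from its left edge, coloured symbols are replicates, black ticks are the thresholded list, and the dotted line is rank 6253. All ticks but those of the summits at 142 kb in the bithorax complex, at rank 350, and at 98.2 kb in the Antennapedia complex, at 1058, lie between ranks 1587 and 6155.

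Words that factors of this class and others are known to bind were counted within 50 bp of the 31 summits, beside their share over all thresholded summits and over the 3158 outside start sites, since 28 of the 31 lie outside them. CACGTG, the class B E-box, was at 0 of 31, which allows up to 11.2%, beside 0.800% of all and 0.538% outside start sites. CACGCG, the class C site, was at 1, in lab (3.23%, beside 1.18% and 0.792%, with an interval of 0.0816 to 16.7 that holds both). The N-box CACNAG was at 5 (16.1%, beside 10.3% and 8.93%, with an interval of 5.45 to 33.7 that holds both). For CGATA, at 4 summits, all in the Antennapedia complex, the direction turned with the comparison: 12.9%, beside 18.4% of all and 10.1% outside start sites. The longer TATCGATA that contains it, the DRE of DREF and BEAF-32, was at 0 (beside 2.46% and 0.190%). GAGAG was at 5 (16.1%, beside 9.18% and 9.34%) and GCCAT at 5 (16.1%, beside 14.8% and 14.2%). The palindrome TAGCTA was at 0 (beside 3.52% and 2.63%). CAGGTAG was at the summit at 16798875 only (3.23%, 0.0816 to 16.7, beside 0.336% and 0.443%). GGTCACAC was at Dfd only (3.23%, 0.0816 to 16.7, beside 1.39% and 0.253%). The Dfd summit is at a start site, so the share outside start sites is for another kind of site. AGGNGGC was at 3, upstream of bcd and at 16869397 and 16919257 (9.68%, 2.04 to 25.8, beside 2.97% and 2.60%). CCAATTGG, the palindrome of Elba and Insensitive, was at 0 (beside 0.304% and 0.222%). These last 2 words were added after the summits had been seen. The strongest 3 summits of the bithorax complex and the bcd summit had GC contents of 55.4%, 51.5%, 55.4% and 55.4%, beside a median of 32.7% over the 31 and 33.7% over all thresholded summits. Other strong summits were not rich in GC. The Antp summit at 6912541 (signal 333.57), stronger than those at 16869397 (330.67) and 16919257 (320.80), had 26.7%. The next in strength, at 16958255 (317.04) and 6763122 (309.17), had 22.8% each. A word in a window is a description and shows no bound factor.

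Genes that act on or with the Hox genes were taken from lists and compared with the same 27.7% of protein-coding genes that had a thresholded start-site summit. Counts in gene bodies stand beside the 14.1% of protein-coding genes that held a thresholded summit in the body. Of 8 segmentation regulators of Hox genes (hb, Kr, kni, gt, tll, eve, run and en), 0 had a summit at a start or in the body. Of 3 Hox cofactors (exd, hth and tsh), 0 had one at a start, and hth, which brings the cofactor Exd into the nucleus, had one in its body at rank 853 (signal 470.32). Of 6 targets of Hox proteins, Dll, a limb gene that abdominal Hox proteins repress, had one at a start (signal 124.13, rank 6151), while dpp, wg and ct had body summits at signals of 490.15, 129.46 and 383.29 and ems and rpr had neither.

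Start-site summits were common at the genes that keep Hox expression stable. In the Polycomb group, whose proteins hold Hox genes silent, 12 of 18 had one (66.7%), the strongest at ph-p (2491.98), E(z) (870.09), Su(z)12 (442.32) and Sfmbt (439.52) on the signal scale of the thresholded list. In the trithorax group, whose proteins keep Hox genes active, 9 of 12 had one (75.0%), led by brm (995.89), Trl (606.12), fs(1)h (334.98) and skd (305.56). Among boundary factors 5 of 11 had one (45.5%), Cp190 (1018.68), BEAF-32 (277.72), CTCF (245.61), pita (221.75) and su(Hw) (133.30). The lists were chosen with earlier results known and carry no test.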

How the data were processed

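Peak lists of 3 ChIP-seq replicates and of their pool were used as the authors deposited them on dm6. Per the deposited text listings, the thresholded set came from the 3 replicate lists and the pooled list, and each call had a control file. Aligner, peak caller, reproducibility limit and sequencing depth are not given in the sources used here, so no value carries a depth. Per the labels, chromatin was sonicated and fragments were 200 to 800 bp. The signal per peak is the authors' value. The deposited −log10 q-value was the same for all 6253 thresholded peaks and ranked nothing. The summit is the deposited offset added to the peak start.

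Gene models were Ensembl release 115, and 8 of 8 Hox genes had the same edges in the RefSeq Release 6 table. A summit was classed by protein-coding models, in the order start site (within 500 bp), exon, intron, between genes. Rank in a replicate is that of the best-ranked overlapping peak with its summit within 150 bp, or of the nearest where there was none. Replicate lists were restricted to their strongest 6253 peaks for densities, shares and support. Intervals are exact 95% and cover counting error only. Permutation tests were exact and two-sided. Both values of each comparison come from the same replicate, so a test paired by replicate was an added alternative. Python 3.11.15, numpy 2.4.6, pandas 2.3.3 and scipy 1.17.1 were used, and class and word searches were tested on simulated data. The members, lists and words were chosen with earlier results of these data known. Named were all 8 Hox genes, every thresholded summit of a complex with up to 25, genes of the complexes at or holding one, up to 4 genes per related list by start-site signal and all genes of short lists. Sequences were those of the strongest summits by kind of site, and the 2 next strongest of the bithorax complex were added after their values were seen. The next strongest between Hox genes of the Antennapedia complex, at 6763122 and 6881800, are described without their bases. Alternatives changed the start window, list length, complex edges, word window and replicates. Lists on dm3 were not used here.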

Additional observations from a re-analysis of the deposited data

How the results depend on the processing

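Of 125 alternative values, 73 belong to the counts and comparisons and 52 to single genes and words. Of the former 50 kept their direction and, where they are counts or values with no test, stayed within 1.5 times or the spread between replicates, while 23 did not; of the latter 48 did and 4 did not. Of the values of tested comparisons that kept their direction, 3 moved by over 1.5 times and are given below. With the replicate as block, an exact paired permutation test added after the data were seen, the differences of -0.71, -0.13, -42.62 and 1.86 had p = 0.25, 0.75, 0.25 and 0.25, where 0.25 is the smallest that 3 pairs allow. Among the stronger peaks only, above the median rank, the Antennapedia complex held 8 summits and the bithorax complex 7. Start-site summits in both complexes numbered 1 with a 250 bp window and 5 with edges 10 kb wider. Shares over all protein-coding genes were taken at 500 bp from any start only, so the next Hox counts have none beside them. Hox genes with a start-site summit numbered 0 in the thresholded list at 250 bp and 3 at 2000 bp. In the strongest 6253 peaks of replicates 1, 2 and 3 they numbered 0 each at 250 bp, and 4, 3 and 2 at 2000 bp. With only the 5′ end of each gene model they numbered 4 in the pooled list, 3 in replicate 1 and 1 in replicate 2 as whole lists; whole replicate 1 gave 3 at 250 bp and whole replicate 2 gave 6 at 2000 bp. The Antennapedia minus bithorax density turned to 0.42 per 100 kb with whole replicate lists and to 0.50 with 2 times as many peaks (both p = 0.80, exact permutation). The density of both complexes minus the rest of the arm turned to 1.45 with whole lists (p = 0.60), 0.03 with 2 times as many peaks (p = 1.0) and 0.10 with edges 10 kb wider (p = 0.90, all exact permutation). Leaving out 1 replicate gave -0.40 to 0.03 for that difference, -0.93 to -0.60 for the Antennapedia minus bithorax difference, -44.16 to -41.71 percentage points for start-site shares, 1.71 to 1.93 per 100 kb for summits outside start sites, and 24 to 26 summits found in every remaining replicate. The start-site share difference shrank to -23.31 with whole lists and was -33.91 with 2 times as many peaks, and the difference in density outside start sites grew to 5.91 and 3.14 (all p = 0.10, exact permutation). With 100 bp in place of 50 bp, CACGTG was at 1 summit, CACNAG at 8, GAGAG at 11 and GCCAT at 10. The shares over all thresholded summits were taken at 50 bp only and cannot be set beside these counts. The causes were not tested. Without read depth, a missing summit does not show that a site was unbound.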
